A study of Arabidopsis thaliana with 30 samples.

Results

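The tcpq mutant of Arabidopsis thaliana was set directly against the tcp21 mutant under submergence, gene by gene and without the wild type in between. The comparison used 6 of the 30 libraries of the series, taken by their labels as the 3 tcpq and the 3 tcp21 libraries from submerged seedlings. All 20385 genes that passed a filter on low counts were tested. The series measured RNA by sequencing in whole seedlings 6 days old, and the labels call both mutants CRISPR lines. The tcpq group has only that name, and the sources used here do not say which genes it lacks, how many lines stand behind each mutant or how long the seedlings were submerged. The mock libraries of tcpq and tcp21, and the mock and submergence libraries of the wild type Col, 3 libraries in each group, serve here only to place the values. These 18 libraries were fitted together, so they share 1 estimate of the spread between replicates. The first Col mock library has a genotype field that names another mutant, against its title, and it was kept with Col by its title.

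TCP proteins are plant-specific transcription factors with a basic helix-loop-helix type of DNA-binding domain, and they are split into class I and class II. Class I members, TCP21 among them, bind sites of the type GTGGGNCC and are known for roles in growth, the circadian clock, hormone signalling and immunity, with much overlap between members. TCP21 is also called CHE and is known as a repressor of the clock gene CCA1, whose promoter holds such a site. Flooding cuts off oxygen and light, and in Arabidopsis it is known to switch on hypoxia, ethylene, abscisic acid and starvation programmes.

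The upstream sequence of CCA1 is shown first because it carries the known TCP21 site, followed by 3 genes that were higher in tcpq and carry sites of the type ACGTGNC, the core bound by factors of the abscisic acid pathway. Each is the 250 bases before the annotated gene start in RefSeq's annotation of TAIR10.1, read 5′ to 3′ on the gene's strand, and capitals mark the motif letters found on either strand. The windows are chr2:19245341-19245590 on the plus strand for CCA1, chr3:3585851-3586100 on the minus strand for PP2CA, chr2:14863413-14863662 on the minus strand for LEA18 and chr4:10521009-10521258 on the plus strand for CYP707A1. In CCA1 the second run of capitals is the GTGGGNCC match, and the first run holds 2 overlapping ACGTGNC matches, one on each strand.
CCA1: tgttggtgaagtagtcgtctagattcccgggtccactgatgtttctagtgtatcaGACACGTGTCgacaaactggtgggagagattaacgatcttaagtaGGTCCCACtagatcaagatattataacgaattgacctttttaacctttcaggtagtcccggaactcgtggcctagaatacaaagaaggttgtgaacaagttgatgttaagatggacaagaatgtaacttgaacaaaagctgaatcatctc
PP2CA: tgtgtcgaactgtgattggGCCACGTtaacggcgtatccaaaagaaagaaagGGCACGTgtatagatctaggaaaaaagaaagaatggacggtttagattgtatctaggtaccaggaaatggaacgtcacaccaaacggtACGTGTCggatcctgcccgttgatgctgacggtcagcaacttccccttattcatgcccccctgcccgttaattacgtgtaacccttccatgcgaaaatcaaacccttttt
LEA18: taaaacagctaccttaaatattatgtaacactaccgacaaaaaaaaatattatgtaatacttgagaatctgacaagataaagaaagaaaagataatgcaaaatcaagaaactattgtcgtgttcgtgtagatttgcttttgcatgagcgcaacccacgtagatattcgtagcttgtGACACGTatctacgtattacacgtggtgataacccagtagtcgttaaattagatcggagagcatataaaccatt
CYP707A1: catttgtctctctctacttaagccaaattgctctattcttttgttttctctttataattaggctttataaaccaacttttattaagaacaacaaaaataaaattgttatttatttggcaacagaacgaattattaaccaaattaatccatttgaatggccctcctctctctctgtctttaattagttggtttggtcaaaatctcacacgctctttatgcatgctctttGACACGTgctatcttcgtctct
A search of these windows for all genes tested found GTGGGNCC on either strand in 1.31% of 20272 windows, in 1.94% of those of genes higher in tcpq and in 1.61% of those of genes lower in tcpq. ACGTGNC was in 9.64% of all windows, in 9.41% of those of genes higher in tcpq and in 10.6% of those of genes lower in tcpq. Among genes higher by at least 2-fold it was in 13%, or 30 of 231 windows, and among nuclear genes lower by at least 2-fold in 8.54%, or 7 of 82 windows. The genes shown after CCA1 were picked among those that carry ACGTGNC. KIN1, XERO2 and AT3G02480, also higher in tcpq, had no match. Of the abscisic acid and cold-type genes that were not called, RD29B, RAB18, DREB2A, CYP707A3 and CBF2 had ACGTGNC matches and the others did not. Among clock genes lower in tcpq, PRR7, PRR9, RVE1, RVE2 and LNK2 had matches and LNK1 did not. The clock genes CCA1, LHY, LUX, TOC1, BOA, PRR3 and AT5G52660 also had ACGTGNC matches and were not called. GI, ELF3, PRR5, RVE4, RVE8, ZTL and CDF1, not called either, had no ACGTGNC match, nor had ELF4, which was higher. A match is a description of the letters only.

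Under submergence 2756 of the 20385 genes differed between tcpq and tcp21 at a Benjamini-Hochberg adjusted p below 0.05 in edgeR's quasi-likelihood test, which is 13.5% of the genes tested. Of these, 1648 were higher in tcpq (8.08%) and 1108 were lower (5.44%). Most differences were small, with a median size of 0.47 on the log2 scale among called genes, and 231 genes were higher (1.13%) and 132 lower (0.648%) by at least 2-fold. Of those 132 lower genes 48 were chloroplast-encoded and 2 mitochondrial, leaving 82 of the nucleus, while all 231 higher genes were nuclear. Fewer genes were called when a library was left out. Without the first, without the second and without the third tcpq library 1659, 1785 and 1819 genes were called, and without the first, without the second and without the third tcp21 library 2002, 1889 and 1738 were called. Of the calls, 613 higher and 409 lower genes were called in every one of those 6 fits. The 3 tcpq and 3 tcp21 values did not overlap for 34.5% of all genes tested. Library totals ran from 17931608 to 25551903 counts. On a principal component plot of the 6 libraries, the third tcp21 library stood apart from the other tcp21 libraries on the second component, which held 17.07% of the variance, and it also had the most chloroplast-encoded counts.

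TCP21 (AT5G08330, on chromosome 5) was the class I TCP gene that differed most. Its level was 58.4, 64.9 and 58.9 CPM, the read count scaled by library size, in the 3 tcpq libraries under submergence, against 19.9, 22.3 and 27.6 CPM in the 3 tcp21 libraries. Every tcpq library lay above every tcp21 library. The log2 difference was 1.39 ± 0.10 (SE, adjusted p = 7.6e-10 by edgeR), and submerged Col had 73.5, 77.6 and 83.4 CPM, above both mutants. In mock, tcpq had 19.9, 22.8 and 23.56 CPM and tcp21 27.9, 28.7 and 33.0 CPM, against 83.2, 102 and 93.7 CPM in Col, so the order of the mutants was the opposite one there (log2 difference -0.43, adjusted p = 0.000915). The difference between the treatments was itself called (1.82, adjusted p = 5.15e-11). TCP21 transcript was therefore counted in all 18 libraries, below Col in both mutants, and these counts do not show whether the edited gene gives a working protein.

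TCP8 and TCP23 were the other class I genes that were higher in tcpq. TCP8, known in immunity and hormone responses, had 72.8, 70.3 and 75.8 CPM in tcpq under submergence, against 50.01, 50.6 and 47.4 CPM in tcp21, with a log2 difference of 0.57 ± 0.07 (SE, adjusted p = 3.12e-06). TCP23 had 20.8, 21.0 and 17.1 CPM in tcpq, against 11.2, 11.2 and 9.61 CPM in tcp21, with a difference of 0.87 ± 0.12 (SE, adjusted p = 7.82e-06). For both genes the mutants did not overlap and Col lay nearer to tcp21, at 58.7 CPM for TCP8 and 12.003 CPM for TCP23. In mock TCP8 was not called (0.06, adjusted p = 0.519), and TCP23 was higher in tcpq by a smaller log2 value (0.39, adjusted p = 0.00319). The calls of TCP21, TCP8 and TCP23 were kept in all 6 fits that left out a library.

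**Figure D1:**
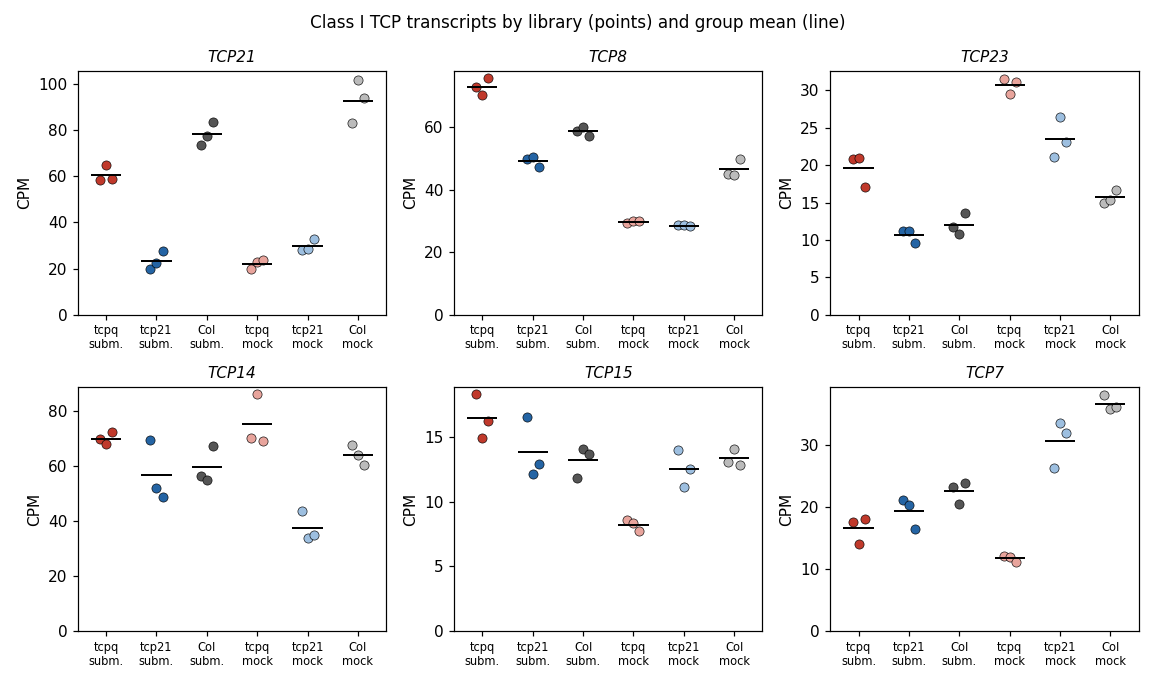
Level in CPM (vertical axis, from 0) of 6 class I TCP genes in every library of the 6 groups. Each point is 1 library and each line is a group mean. TCP21, TCP8 and TCP23 separate the tcpq from the tcp21 libraries under submergence, and TCP14, TCP15 and TCP7 separate them in mock but not under submergence.

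The other class I genes that passed the filter did not pass the test under submergence. In all, 9 of the 13 class I genes were measured. Of these, 3 were higher and 0 lower in tcpq (33.3% called, beside 13.5% of all genes). Their median log2 difference was 0.25, beside 0.02 over all genes. TCP14, known for cell growth and defence, had 69.7, 67.8 and 72.2 CPM in tcpq against 69.3, 51.9 and 48.7 CPM in tcp21, where the first tcp21 library sat within the tcpq range (log2 difference 0.30, adjusted p = 0.111). TCP15, its close relative, had a difference of 0.25 (adjusted p = 0.212). TCP7 had 17.5, 14.02 and 18.1 CPM in tcpq and 21.1, 20.4 and 16.5 CPM in tcp21, and these values overlapped (adjusted p = 0.212). TCP19, TCP20 and TCP22 had log2 differences of -0.29, 0.11 and 0.12 with adjusted p of 0.573, 0.703 and 0.348. TCP9 had 0 counts in every library, and TCP6, TCP16 and AT2G37000 were under the filter with at most 7 counts in a library.

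In mock 7 of the 9 measured class I genes differed, 4 higher and 3 lower in tcpq, where 52.4% of all genes were called. TCP14 was higher in tcpq in mock, at 70.3, 86.0 and 69.1 CPM against 43.6, 33.7 and 34.8 CPM in tcp21 (1.00, adjusted p = 7.39e-07). TCP7 was lower, at 12.02, 11.95 and 11.2 CPM against 26.3, 33.5 and 32.0 CPM in tcp21 (-1.38, adjusted p = 2.56e-11), and Col mock averaged 36.6 CPM. The mock difference of TCP7 and TCP14 thus exceeded the one under submergence, and the interaction was called for both (1.16 and -0.70).

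Of the 11 class II genes, known for leaf development and cell differentiation, 8 were measured, with 12.5% called beside 13.5% of all genes. None was higher and TCP13 alone was lower in tcpq under submergence, with 39.1, 36.4 and 40.9 CPM in tcpq against 45.4, 46.9 and 53.7 CPM in tcp21 (log2 difference -0.33, adjusted p = 0.0273). That call was lost without the first or the second tcpq library or without the third tcp21 library, where adjusted p reached 0.121. TCP5 came close to the threshold on the other side, with a difference of 0.46 (adjusted p = 0.0534). TCP2, TCP3, TCP4, TCP10, TCP17 and TCP24 lay between -0.11 for TCP24 and 0.34 for TCP2. TCP1 had 0 counts, and TCP12 and TCP18 were under the filter.

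BAK1 and BKK1, the receptor co-kinases that the title of the series ties to TCP21, did not separate the mutants. BAK1 had 89.2, 83.7 and 90.03 CPM in tcpq and 83.2, 93.8 and 96.1 CPM in tcp21 under submergence (log2 difference -0.05 ± 0.07, SE, adjusted p = 0.679). BKK1 had 81.1, 69.5 and 80.6 CPM in tcpq and 69.5, 81.9 and 73.6 CPM in tcp21 (0.04 ± 0.10, SE, adjusted p = 0.843). Values of both genes overlapped between the mutants, and those of BKK1 were below the 3 Col libraries, at 105, 100.5 and 100.3 CPM. SERK1, SERK2 and SERK5, relatives of BAK1, were not called either.

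Of the 11 genes for SERK co-receptors and brassinosteroid receptors and their partners, 3 were higher and 0 lower in tcpq. That is 27.3% called, beside 13.5% of all genes, with a median of 0.02. BZR1, a transcription factor of brassinosteroid signalling, had 35.0, 32.8 and 35.1 CPM in tcpq against 25.0, 24.7 and 25.7 CPM in tcp21 (0.45 ± 0.10, SE, adjusted p = 0.00268), with Col at 25.3 CPM. It overlaps other genes on the opposite strand, so its level is uncertain. BRI1, the brassinosteroid receptor, had 204, 201 and 236 CPM in tcpq against 173, 172 and 173 CPM in tcp21 (0.31, adjusted p = 0.00579), a call lost without the third tcpq library at an adjusted p of 0.0632. BIR1, a kinase that binds BAK1, differed by 0.31 (adjusted p = 0.0413), and its call held only in the fit without the third tcp21 library.

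Among 10 genes of brassinosteroid synthesis and inactivation, 0 were higher and 2 lower in tcpq (20% called, beside 13.5% of all genes). DWF1, which makes an early sterol precursor, had 323, 324 and 291 CPM in tcpq against 428, 451 and 428 CPM in tcp21 (-0.48 ± 0.08, SE, adjusted p = 0.000133). All tcpq libraries lay below all tcp21 libraries, and submerged Col averaged 307 CPM, beside tcpq. CYP90D1, a later enzyme of the pathway, differed by -0.61 (adjusted p = 0.0185), a call lost without the second or the third tcpq library or the second tcp21 library.

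The 12 largest rises in tcpq came from genes of varied annotation. BON3, a calcium-dependent phospholipid-binding copine, led the named rises with 15.1, 15.9 and 14.5 CPM in tcpq against 1.55, 2.55 and 1.69 CPM in tcp21. Even the lowest tcpq library was far above every tcp21 and every Col library, which had 3.22, 2.77 and 2.75 CPM. Its log2 difference was 2.98 ± 0.28 (SE, adjusted p = 2.36e-08), and in mock all 3 groups were under 2 CPM.

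LEA18 and AT3G02480, both annotated as late embryogenesis abundant proteins, which are known to protect cells against drying, were also among them. LEA18 had 18.6, 15.69 and 13.3 CPM in tcpq against 4.61, 4.38 and 4.70 CPM in tcp21 (1.79 ± 0.17, SE, adjusted p = 3.17e-08). AT3G02480 had 18.5, 19.9 and 12.5 CPM in tcpq against 5.49, 5.50 and 4.17 CPM in tcp21 (1.73 ± 0.17, SE, adjusted p = 4.97e-08). Neither gene's values overlapped between the mutants, and Col was nearer to tcp21, at 6.82 and 4.68 CPM. LEA18 was also higher in tcpq in mock (1.61, adjusted p = 8.1e-10), and its interaction was not called (0.18, adjusted p = 0.565).

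ABCF2, annotated as an ABC transporter family protein, had 8.70, 6.67 and 10.4 CPM in tcpq against 2.48, 2.55 and 1.90 CPM in tcp21, and AT2G37870, a lipid-transfer protein family member, had 13.7, 13.4 and 9.38 CPM in tcpq against 3.76, 2.19 and 2.64 CPM in tcp21. In ABCF2, which overlaps a gene on the opposite strand, the tcpq libraries stood above the other groups in mock too (1.57, adjusted p = 9.13e-08). In AT2G37870 the mock direction was the opposite one (-1.26, adjusted p = 0.000502). AT4G34810, a SAUR-like auxin-responsive gene, had 4.96, 7.47 and 7.32 CPM in tcpq against 2.26, 2.14 and 2.01 CPM in tcp21.

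The RNAs AT4G04223 and AT3G05945, which code for no annotated protein, set tcp21 apart instead. AT3G05945 had 23.0, 22.8 and 24.9 CPM in tcpq against 6.78, 6.63 and 6.65 CPM in tcp21, and Col had 20.7, 18.9 and 20.1 CPM, near tcpq. AT4G04223 had 10.96, 8.85 and 13.2 CPM in tcpq against 1.99, 4.48 and 2.06 CPM in tcp21, with Col at 7.28, 9.17 and 11.4 CPM. AT4G04745, AT4G02170, AT1G72240 and P1R3, whose function the annotation does not describe, completed the 12, with log2 differences of 2.07, 1.85, 1.71 and 1.68. The smallest adjusted p of all genes belonged to AT5G11330, an oxidoreductase family gene singled out after its values were seen. It averaged 43.4 CPM in tcpq, 15.6 CPM in tcp21 and 42.5 CPM in Col under submergence (log2 difference 1.48, adjusted p = 2.7e-12).

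**Figure D2:**
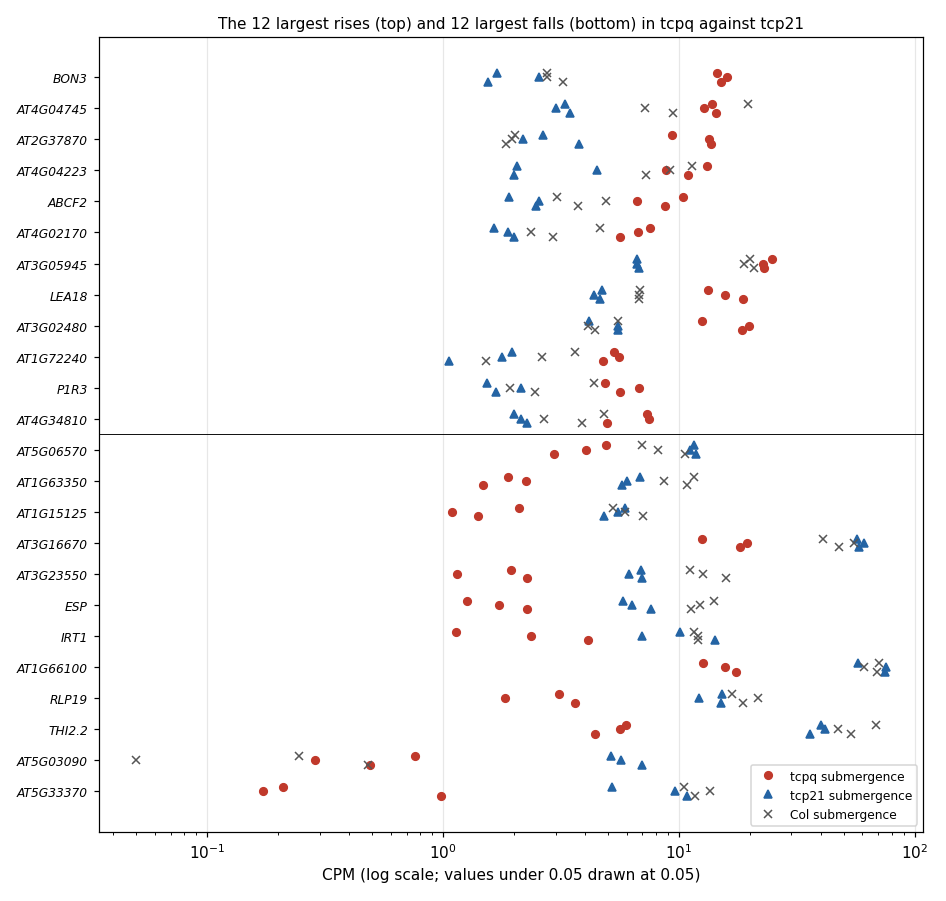
Level in CPM on a log axis of 24 nuclear genes called under submergence, 12 with the largest rise and 12 with the largest fall, each averaging 5 CPM or more in the higher mutant. Circles are tcpq, triangles tcp21 and crosses Col, 3 submergence libraries each. Circles and triangles do not overlap in any row, which the choice of genes fixed, and Col sits beside tcp21 in some rows and beside tcpq in others.

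The 12 largest falls included 2 thionin genes, which code for antimicrobial peptides. THI2.2 had 4.41, 5.63 and 5.97 CPM in tcpq against 35.8, 41.5 and 39.9 CPM in tcp21 (-2.86 ± 0.16, SE, adjusted p = 7.6e-10). The other thionin gene, AT1G66100, had 17.5, 15.69 and 12.7 CPM in tcpq against 74.6, 75.3 and 57.3 CPM in tcp21 (-2.19 ± 0.15, SE, adjusted p = 3.17e-08). In both genes every tcpq library was low, and tcp21 was nearer to Col, which averaged 56.5 and 67.1 CPM. The 2 genes are related and may share reads. In mock the tcpq libraries were under 1 CPM for both genes, against 67.1, 70.8 and 73.8 CPM for THI2.2 and 71.7, 74.5 and 67.8 CPM for AT1G66100 in tcp21.

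RLP19, a receptor-like protein, had 3.61, 1.84 and 3.11 CPM in tcpq against 15.1, 12.2 and 15.2 CPM in tcp21, and Col had 18.6, 21.7 and 16.8 CPM (-2.31 ± 0.23, SE, adjusted p = 3.59e-07). AT1G63350, annotated as a disease resistance protein, averaged 1.87 ± 0.386 CPM in tcpq and 6.19 ± 0.55 CPM in tcp21 (SD, n = 3 each), with a gene overlapping it on the opposite strand. ESP, which directs the breakdown of glucosinolates to nitriles, had 2.27, 1.72 and 1.26 CPM in tcpq against 7.62, 6.32 and 5.81 CPM in tcp21 (-1.94 ± 0.23, SE, adjusted p = 2.11e-06). All 3 genes were low in each tcpq library and highest in Col.

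The remaining large falls had varied annotations. AT5G33370, a GDSL-like lipase, had 0.98, 0.172 and 0.21 CPM in tcpq against 10.8, 9.63 and 5.23 CPM in tcp21 (-4.33 ± 0.53, SE, adjusted p = 0.000134). It was near absent in tcpq in mock too, at 0, 0.514 and 0.421 CPM against 12.2, 12.1 and 15.2 CPM in tcp21. AT5G03090, annotated as Mto 1 responding down protein, set tcp21 apart, with 0.49, 0.287 and 0.757 CPM in tcpq against 6.95, 5.66 and 5.18 CPM in tcp21, while Col had 0.482, 0 and 0.245 CPM. AT3G16670, annotated as a pollen Ole e 1 and extensin family protein, had 18.1, 19.4 and 12.5 CPM in tcpq against 57.9, 61.0 and 56.9 CPM in tcp21. AT3G23550, a MATE efflux gene with an opposite-strand overlap, AT1G15125, a methyltransferase family gene, and AT5G06570, an alpha/beta-hydrolase family gene, had log2 differences of -1.90, -1.78 and -1.52.

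IRT1, the main iron uptake transporter of roots, was lower in tcpq. It had 4.104, 2.36 and 1.14 CPM in tcpq against 14.2, 6.98 and 10.14 CPM in tcp21 (-2.10 ± 0.39, SE, adjusted p = 0.00415), and Col had 12.1, 12.04 and 11.6 CPM. Each tcpq library was below each tcp21 library, though libraries of both mutants differed among themselves. Of 23 measured genes of iron homeostasis, 2 were higher and 3 lower in tcpq (21.7% called, beside 13.5% of all genes). The list's median log2 difference was 0.00025, and the other 2 lower genes were FRO2 and CYP82C4. FRO2, the root ferric reductase, had 4.47, 2.76 and 1.56 CPM in tcpq against 6.47, 4.84 and 8.29 CPM in tcp21 (-1.19, adjusted p = 0.0202), a call lost without the second or the third tcpq library or the third tcp21 library. CYP82C4 had 0.245, 0.632 and 0.168 CPM in tcpq against 2.75, 0.714 and 1.85 CPM in tcp21, with a call lost without the first or the third tcpq library or the first tcp21 library. FRO3, a reductase of the same family that overlaps a gene on the opposite strand, was higher (0.31, adjusted p = 0.0112), a call lost without the first or the second tcp21 library. AT3G12900, an enzyme gene of coumarin synthesis, was called higher at under 1 CPM in each library, and the call was lost in 5 of the 6 fits that left out a library. Of 11 measured root markers only XTH14 was called, higher in tcpq (0.52, adjusted p = 0.00235), or 9.09% beside 13.5% of all genes. The summed level of the root markers was 205 to 223 CPM in tcpq and 179 to 206 CPM in tcp21.

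Core hypoxia genes, which rise in most plants when oxygen falls, moved in both directions. Of 22 measured, 4 were higher and 2 lower in tcpq (27.3% called, beside 13.5% of all genes), with a median log2 difference of 0.15. HB1, a haemoglobin that scavenges nitric oxide, had 7.90, 6.44 and 6.81 CPM in tcpq against 3.23, 4.03 and 3.86 CPM in tcp21 (0.93 ± 0.18, SE, adjusted p = 0.00103). SRO5, a stress-induced gene that overlaps another on the opposite strand, had 45.0, 39.3 and 34.5 CPM in tcpq against 14.2, 18.9 and 23.7 CPM in tcp21 (1.07 ± 0.20, SE, adjusted p = 0.00235). Both stayed apart between the mutants in every library, with Col nearer to tcp21 for HB1, at 4.98 CPM, and nearer to tcpq for SRO5, at 40.9 CPM. AT5G66985 and AT1G19530 were also higher, by 1.102 and 0.87. All 4 rises were kept in the 6 fits that left out a library.

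None of the fermentation enzymes was higher. ADH1, alcohol dehydrogenase, had 8.51, 7.70 and 5.42 CPM in tcpq and 7.93, 7.03 and 6.97 CPM in tcp21, with overlapping values (-0.03 ± 0.25, SE, adjusted p = 0.956). PDC1, pyruvate decarboxylase, differed by 0.69 (adjusted p = 0.117). PDC2, its relative, was lower, at 20.9, 18.22 and 19.6 CPM in tcpq against 25.2, 24.2 and 28.4 CPM in tcp21 (-0.40, adjusted p = 0.0168), and so was the sucrose synthase gene SUS1 (-0.33, adjusted p = 0.029). The lower calls were fragile: without the second or the third tcpq library or the third tcp21 library neither was called, and SUS1 was kept in only 1 of the 6 fits.

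Of 21 measured genes of starvation and darkness, 0 were higher and 1 was lower (4.76% called, beside 13.5% of all genes). The median was -0.21, and 3 were lower without the third tcpq library and 2 without the first tcp21 library. ETFQO, which feeds electrons from amino acid breakdown into respiration, had 96.6, 98.7 and 120.3 CPM in tcpq against 135, 141 and 153 CPM in tcp21 (-0.44 ± 0.09, SE, adjusted p = 0.00265). It overlaps a gene on the opposite strand. In mock 11 of the 21 were higher and 4 lower in tcpq, beside 25.8% and 26.6% of all genes, and the interaction was called negative for 11 genes and positive for 1, where 19.6% and 23.3% of all genes were called.

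Autophagy genes that were higher in tcpq all coded for ATG8, the ubiquitin-like protein that coats the autophagosome membrane. Of 23 measured autophagy genes 6 were higher and 0 lower (26.1% called, beside 13.5% of all genes). All 6 were among the 9 measured ATG8 genes, whose log2 differences ran from 0.29 to 0.65 with a median of 0.41. ATG8H had 41.8, 41.5 and 44.2 CPM in tcpq against 32.2, 25.3 and 23.9 CPM in tcp21 (0.65 ± 0.14, SE, adjusted p = 0.00439). ATG8A had 64.7, 70.0 and 68.7 CPM in tcpq against 55.1, 49.5 and 47.8 CPM in tcp21 (0.41 ± 0.09, SE, adjusted p = 0.0029). ATG8I had 59.2, 56.4 and 54.4 CPM in tcpq against 43.4, 46.0 and 41.0 CPM in tcp21 (0.38 ± 0.09, SE, adjusted p = 0.00511). These 3 genes did not overlap between the mutants and kept their calls in all 6 fits that left out a library, though ATG8A and ATG8I overlap genes on the opposite strand. ATG8G, ATG8D and ATG8F lost theirs in 4 to 5 of those fits, so that 3 genes of the list were higher without the third tcpq, the second tcp21 or the third tcp21 library, and without the first or the second tcp21 library 1 was lower. ATG5 and ATG7, which attach ATG8 to the membrane, were not called (adjusted p = 0.098 and 0.631). Col lay near tcpq, at 38.7 CPM for ATG8H and 67.5 CPM for ATG8A.

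The ethylene genes that changed were all lower in tcpq. Of 18 measured, 0 were higher and 5 were lower (27.8% called, beside 13.5% of all genes), with a median of -0.12. ERS1, an ethylene receptor, had 79.7, 75.4 and 81.5 CPM in tcpq against 107, 106 and 102 CPM in tcp21 (-0.41 ± 0.07, SE, adjusted p = 0.000407). CTR1, the kinase that acts with the receptors to hold the pathway off, had 77.6, 70.2 and 81.8 CPM in tcpq against 96.2, 91.9 and 96.9 CPM in tcp21 (-0.31 ± 0.07, SE, adjusted p = 0.00514). ACO4, an enzyme of ethylene synthesis, had 259, 256 and 262 CPM in tcpq against 371, 356 and 281 CPM in tcp21 (-0.37 ± 0.09, SE, adjusted p = 0.00533). All tcpq libraries of these genes were below all tcp21 libraries. ERS1 overlaps a gene on the opposite strand. The receptor genes ERS2 and ETR2 were also lower (-0.53 and -0.40), but each call was kept in only 1 of the 6 fits that left out a library, so that 3 ethylene genes were lower without any 1 of the tcpq libraries or without the first tcp21 library.

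The same 5 ethylene genes were all higher in tcpq in mock. In mock ERS1 had 102, 102 and 98.1 CPM in tcpq against 71.2, 58.5 and 65.4 CPM in tcp21, and CTR1 had 108, 107 and 114 CPM in tcpq against 73.9, 81.8 and 80.7 CPM in tcp21. Over the list, 10 of 18 were higher and 2 lower in tcpq in mock, against 25.8% and 26.6% of all genes. The interaction was called negative for 9 ethylene genes and positive for 2, beside 19.6% and 23.3% of all genes.

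Of 24 measured abscisic acid and cold-type genes 4 were higher and 0 lower in tcpq (16.7% called, beside 13.5% of all genes). The median was 0.30. PP2CA, a phosphatase that limits abscisic acid signalling and whose upstream window with 3 ACGTGNC matches is shown above, had 62.9, 66.3 and 59.7 CPM in tcpq against 42.4, 41.2 and 46.3 CPM in tcp21 (0.54 ± 0.09, SE, adjusted p = 0.000133). CYP707A1, which inactivates abscisic acid, had 17.1, 19.3 and 17.7 CPM in tcpq against 9.57, 10.04 and 10.3 CPM in tcp21 (0.86 ± 0.15, SE, adjusted p = 0.000287). KIN1, a cold- and drought-induced gene, had 49.2, 43.4 and 34.1 CPM in tcpq against 25.4, 24.3 and 18.5 CPM in tcp21 (0.89 ± 0.14, SE, adjusted p = 0.000206). The mutants did not overlap for these 3 genes. XERO2, a dehydrin, had a difference of 0.32 (adjusted p = 0.041), with a call kept in only 1 of the 6 fits. All 4 were lower in tcpq in mock, PP2CA at 19.3, 19.1 and 19.3 CPM against 57.0, 69.9 and 69.6 CPM in tcp21, and over the list of 24 genes 3 were higher and 16 lower in mock, beside 25.8% and 26.6% of all genes. The interaction was called positive for 13 and negative for 1, beside 23.3% and 19.6% of all genes. KIN2, a neighbour of KIN1 that may share reads with it, was not called under submergence (0.31, adjusted p = 0.0924).

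Jasmonate genes moved in both directions. Of 26 measured, 2 were higher and 5 lower in tcpq (26.9% called, beside 13.5% of all genes), with a median of -0.09. The genes that were lower included enzymes of the pathway and repressors. AOC1 and AOC2, allene oxide cyclases that are close neighbours in sequence and may share reads, had 20.4, 24.6 and 19.5 CPM and 22.0, 22.5 and 19.9 CPM in tcpq, against 39.1, 31.3 and 37.2 CPM and 40.2, 27.8 and 41.8 CPM in tcp21. Their log2 differences were -0.74 and -0.77 (adjusted p = 0.000171 and 0.000178). LOX2, the lipoxygenase that starts the pathway in leaves, had 10.4, 10.98 and 5.93 CPM in tcpq against 24.4, 15.1 and 25.9 CPM in tcp21 (-1.28 ± 0.24, SE, adjusted p = 0.00232).

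JAZ9, a repressor of jasmonate responses, had 214, 205 and 193 CPM in tcpq against 284, 259 and 304 CPM in tcp21 (-0.47, adjusted p = 0.000162), and its relative JAZ8 ran the other way, with 13.2, 13.0 and 8.83 CPM in tcpq against 6.998, 5.10 and 5.65 CPM in tcp21 (0.97, adjusted p = 0.00514). None of these genes overlapped between the mutants. Col was above both mutants for each of AOC1, AOC2, JAZ9 and JAZ8, at 81.9, 59.2, 434 and 23.1 CPM. JAZ3, another repressor, was lower (-0.48, adjusted p = 0.0169), a call lost without the first or without the third tcpq library. VSP1, a storage protein induced by jasmonate, was higher (0.76, adjusted p = 0.0447) with a call kept in 1 of the 6 fits.

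Among 18 measured genes of salicylic acid defence 2 were higher and 0 lower (11.1% called, beside 13.5% of all genes). NPR3, a salicylic acid receptor, had 91.3, 88.5 and 103 CPM in tcpq against 62.0, 70.9 and 75.3 CPM in tcp21 (0.44 ± 0.10, SE, adjusted p = 0.00435), with Col at 110.2, 108 and 109 CPM. The mutants did not overlap. NIMIN2, which binds the regulator NPR1, was called at 3.06 CPM or less, and its call was kept in 1 of the 6 fits. Among 14 touch and rapid stress genes CML37, a calmodulin-like calcium sensor, was the 1 called, or 7.14%. It had 14.7, 13.4 and 10.4 CPM in tcpq against 6.64, 4.03 and 5.70 CPM in tcp21 (1.22 ± 0.27, SE, adjusted p = 0.00495).

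Of 13 measured auxin response genes 2 were higher, 2 lower and 9 not called (30.8% called, beside 13.5% of all genes). All 4 calls were kept in every fit that left out a library. IAA2, an auxin-induced repressor, had 139.6, 137 and 167 CPM in tcpq against 82.0, 49.2 and 53.1 CPM in tcp21 (1.27 ± 0.21, SE, adjusted p = 0.00215), and IAA1 differed by 1.32 (adjusted p = 0.000793). GH3.2, an enzyme that conjugates auxin to amino acids, had 8.08, 9.02 and 7.36 CPM in tcpq against 17.3, 18.9 and 16.3 CPM in tcp21 (-1.11 ± 0.15, SE, adjusted p = 1.54e-05), and GH3.3 differed by -1.02 (adjusted p = 0.00286). For IAA2 the tcp21 libraries were the low group, with Col at 129, 95.6 and 173 CPM. The 4 genes had the same directions in mock, with log2 differences of 1.46, 1.94, -2.22 and -1.09.

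Most clock genes that changed were lower in tcpq. Of 21 measured, 1 was higher and 6 lower (33.3% called, beside 13.5% of all genes), with a median of -0.21. PRR7, a repressor expressed in the day, had 140.1, 127 and 157 CPM in tcpq against 199, 207 and 184 CPM in tcp21 (-0.48 ± 0.08, SE, adjusted p = 0.000228). RVE1, a MYB-like factor of morning growth that overlaps a gene on the opposite strand, had 123, 115 and 134 CPM in tcpq against 172, 181 and 179 CPM in tcp21 (-0.52 ± 0.09, SE, adjusted p = 0.000375). Neither gene overlapped between the mutants, and Col was near tcpq for both, at 137 and 107 CPM. LNK1 and RVE2 were lower by smaller values (-0.35 and -0.36). The number of lower clock genes fell to 2 without the second tcpq or second tcp21 library and to 3 without the first tcpq library, and of the 6 only PRR7 and RVE1 were called in all 6 fits, with PRR9 and LNK2 as the other 2 (-0.32 and -0.24). ELF4, of the evening complex, was higher at 1.90, 2.07 and 1.64 CPM in tcpq against 0.797, 0.459 and 1.003 CPM in tcp21, with a call kept in 1 fit. The hour of harvest is not given in the sources used here.

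CCA1, the clock gene whose promoter site binds TCP21, was not called under submergence. It had 130.3, 122 and 152 CPM in tcpq and 145, 158 and 134 CPM in tcp21, with overlapping values, and Col had 135, 152 and 137 CPM (-0.11 ± 0.09, SE, adjusted p = 0.432). Its partner LHY had 88.9, 91.8 and 120.4 CPM in tcpq and 88.7, 106 and 87.5 CPM in tcp21 (0.09, adjusted p = 0.578), and TOC1, their evening counterpart, differed by 0.06 (adjusted p = 0.73). In mock both morning genes were lower in tcpq. CCA1 had 173, 161 and 174 CPM in tcpq against 284, 325 and 279 CPM in tcp21, with Col at 148, 129 and 122 CPM (-0.80, adjusted p = 5.31e-09). The difference of CCA1 between the treatments was called (0.69, adjusted p = 3.32e-05).

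**Figure D3:**
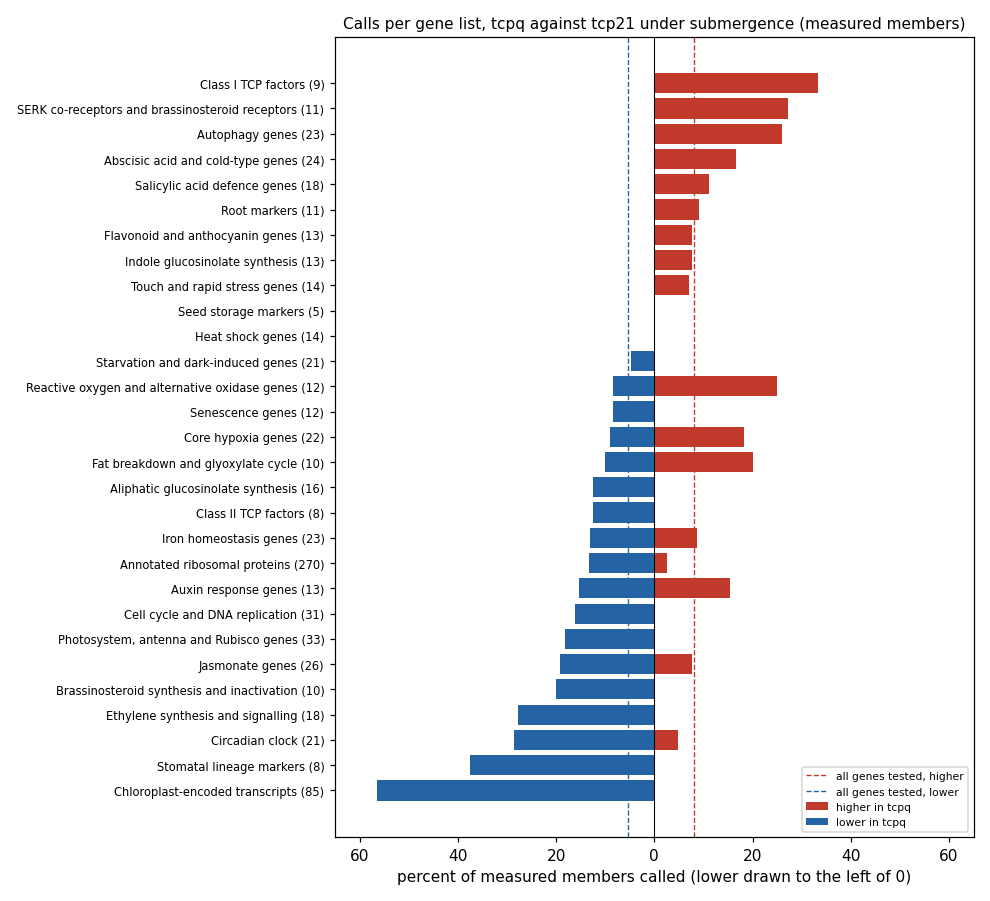
Percent of the measured members of each gene list (number in parentheses) that were called higher in tcpq (right of 0) or lower in tcpq (left of 0) under submergence. Dashed lines mark the same percent over all genes tested, 8.08% higher and 5.44% lower. Chloroplast-encoded transcripts reach farthest to the left, and class I TCP factors farthest to the right from 9 measured genes.

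Cell cycle genes that differed were all lower in tcpq. Of 31 measured, 5 were lower and 0 higher (16.1% called, beside 13.5% of all genes), with a median of -0.23. RNR1, which makes deoxynucleotides, had 17.7, 16.8 and 16.7 CPM in tcpq against 23.3, 23.597 and 23.7 CPM in tcp21 (-0.46 ± 0.11, SE, adjusted p = 0.00478). MCM2, part of the replication helicase, had 9.37, 9.65 and 9.88 CPM in tcpq against 14.8, 15.5 and 12.9 CPM in tcp21 (-0.58 ± 0.15, SE, adjusted p = 0.00943). Both were apart in every library and kept their calls in all 6 fits. CYCA2;3 and CYCD1;1, cyclins that overlap genes on the opposite strand, differed by -0.71 and -0.47, and MCM7, also with such an overlap, by -0.47. Without the first tcpq library the number of lower genes was 2, and without the second tcpq library it was 3. In mock 9 of the 31 were higher and 17 lower in tcpq, with a median of -0.72, beside 25.8% and 26.6% of all genes. All 6 MCM subunits were among the 9 that were higher in mock, with a median of 0.79.

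Of 8 stomatal lineage markers 3 were lower and 0 higher (37.5% called, beside 13.5% of all genes), with a median of -0.92. TMM, a receptor-like protein of stomatal patterning, had 4.90, 5.75 and 3.74 CPM in tcpq against 9.97, 11.9 and 11.4 CPM in tcp21 (-1.22 ± 0.15, SE, adjusted p = 2.43e-06), and the mutants did not overlap. POLAR, a polarity protein of the same lineage that overlaps a gene on the opposite strand, had 0.796, 1.15 and 0.967 CPM in tcpq against 3.37, 3.67 and 2.96 CPM in tcp21 (-1.77, adjusted p = 0.000244). SPCH, the factor that starts the lineage, differed by -1.02 (adjusted p = 0.0326), with a call kept in 2 of the 6 fits. The list summed to 20.8 to 22.1 CPM in tcpq and 30.4 to 32.3 CPM in tcp21, and Col had 29.1 to 35.7 CPM. In mock the sums of the mutants overlapped, at 56.2 to 60.2 CPM in tcpq and 49.1 to 61.1 CPM in tcp21. Both were above Col mock, at 32.6 to 36.3 CPM. By gene, 1 was higher and 4 lower in tcpq in mock, beside 25.8% and 26.6% of all genes, with a median of -0.68. In whole seedlings fewer cells of a type and less RNA per cell cannot be told apart.

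Both enzymes named here from the glyoxylate cycle, which helps turn stored fat into sugar, were higher in tcpq. ICL, isocitrate lyase, had 164, 140.5 and 136 CPM in tcpq against 58.9, 56.7 and 72.4 CPM in tcp21 (1.23 ± 0.21, SE, adjusted p = 0.00263). MLS, malate synthase, the next enzyme of the cycle, had 30.1, 31.4 and 30.1 CPM in tcpq against 18.6, 19.7 and 21.3 CPM in tcp21 (0.62 ± 0.11, SE, adjusted p = 0.000311). Both mutants were above Col, which averaged 26.1 CPM for ICL and 10.8 CPM for MLS. ACX1, an acyl-CoA oxidase of fatty acid breakdown, was lower (-0.27, adjusted p = 0.00622), so that of 10 measured genes 2 were higher and 1 lower. That is 30% of the list, beside 13.5% of all genes. These 3 calls were kept in all 6 fits. ICL had the larger difference in mock, at 430.2, 537 and 464 CPM in tcpq against 65.2, 65.3 and 99.7 CPM in tcp21.

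CAT3, a catalase that removes hydrogen peroxide, had 516, 502 and 527 CPM in tcpq against 946, 994 and 991 CPM in tcp21, with Col at 780.1, 918 and 716 CPM. All tcpq libraries were below all others (-0.92 ± 0.08, SE, adjusted p = 2.9e-09). Of 12 measured genes of reactive oxygen and alternative oxidases it was the 1 lower. RBOHF and RBOHD, oxidases that make superoxide, and AT2G21640, a marker of oxidative stress, were the 3 higher (0.39, 0.43 and 1.13). The list had 33.3% called, beside 13.5% of all genes. RBOHF lost its call without the first tcp21 library, where 0 of the list were higher, and the other 2 were each kept in 1 of the 6 fits.

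Of 33 nuclear photosystem, antenna and Rubisco genes 0 were higher and 6 lower by small values, beside 8.08% and 5.44% of all genes. The lower genes had log2 differences from -0.33 for LHCB1.1, an antenna protein, to -0.18 for LHCB5, another antenna protein. None of the 6 calls held in all 6 fits, without the second tcpq library 1 was called and without the third tcpq library 0 were called. Without the first, without the second and without the third tcp21 library 2 were called each time. Antenna genes have close copies that may share reads. In mock 0 were higher and 32 lower of the 33, beside 25.8% and 26.6% of all genes, and the interaction was called positive for 31 and negative for 0, beside 23.3% and 19.6%.

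Chloroplast-encoded transcripts were lower in tcpq, and in both treatments the tcp21 libraries were the ones that stood apart from Col. As CPM of the unscaled library totals, chloroplast genes summed to 430.7, 394.2 and 374.1 in tcpq under submergence, against 996.6, 916.6 and 2382 in tcp21. Col had 303.1, 295.7 and 374.1, so tcpq was near Col and each tcp21 library was above both. Mitochondrial genes held 0.02451%, 0.02609% and 0.06706% of counts in tcp21, against 0.01824%, 0.01645% and 0.01482% in tcpq. The third tcp21 library was thus highest for both organelles, and the cause was not tested. Of 85 measured genes of 133 listed, 48 were lower and 0 higher in tcpq (56.5% called, beside 13.5% of all genes). The median log2 difference was -1.97. Of 2 genes chosen after their values were seen, ATCG00790 averaged 7.91 CPM in tcpq and 65.4 CPM in tcp21 (-3.06, adjusted p = 0.000517), and ATCG00270 averaged 16.8 CPM in tcpq and 100.1 CPM in tcp21 (-2.59, adjusted p = 0.0174). The count of lower genes was 25, 27 and 21 without the first, without the second and without the third tcpq library, and 51, 53 and 23 without the first, without the second and without the third tcp21 library. In mock 0 were higher and 67 lower, beside 25.8% and 26.6% of all genes, with a median of -2.77, and 1 gene had a called interaction.

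**Figure D4:**
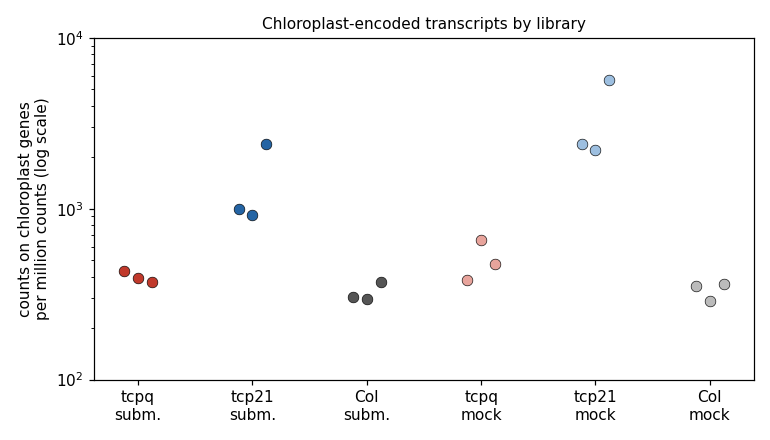
Summed CPM (of unscaled library totals) of chloroplast-encoded genes, on a log axis, in each library (point) of the 6 groups. The tcp21 libraries lie above the tcpq and Col libraries in both treatments, and the third tcp21 library is the highest of its group each time, at 2382 under submergence and 5643 in mock.

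Of 270 measured genes annotated as ribosomal proteins, some of them of organelles, 7 were higher and 36 lower in tcpq. That is 15.9% called, beside 13.5% of all genes, with a median of -0.04. Of 2 genes chosen after their values were seen, RP1, a protein of the large subunit, averaged 427 CPM in tcpq and 554 CPM in tcp21 (-0.37, adjusted p = 0.000483). AT5G02870, of the L4/L1 family, averaged 149.9 CPM in tcpq and 195 CPM in tcp21 (-0.38, adjusted p = 0.00202). Without the first, without the second and without the third tcpq library 19, 18 and 16 were lower, and without the first, without the second and without the third tcp21 library 26, 26 and 21 were lower. The number higher was between 1 and 5 over these 6 fits, the lowest without the third tcp21 library. Many of these genes have close copies that may share reads. In mock 198 were higher and 16 lower in tcpq, beside 25.8% and 26.6% of all genes.

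Other lists had few calls, and none of them reached the 13.5% called over all genes. Of 16 aliphatic glucosinolate genes 0 were higher and 2 lower, MYB29 and CYP79F1, a regulator and an enzyme of the pathway, each called in 3 of the 6 fits (-1.69 and -0.80). Of 13 indole glucosinolate genes MYB51, their regulator, was the 1 higher (0.70, adjusted p = 0.0114), lost without the third tcpq or the first tcp21 library. Of 13 flavonoid genes DFR, a late enzyme of anthocyanin synthesis, was the 1 higher (1.196, adjusted p = 0.0186), lost without the second tcpq or the third tcp21 library. Of 12 senescence genes NAP, a NAC factor of leaf ageing, was the 1 lower (-0.59, adjusted p = 0.0476), kept in 1 of the 6 fits. None of 14 heat shock genes passed, with a median of 0.41, and none of the 5 seed storage genes measured of 14 did.

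The same mutants were compared in mock, in libraries that the submergence comparison does not use, to see which differences were there without flooding. In mock 10683 genes were called (52.4%), 5264 higher (25.8%) and 5419 lower (26.6%) in tcpq, 8.1% higher and 10.3% lower by at least 2-fold, and the 3 tcpq and 3 tcp21 values did not overlap for 57.6% of genes. The median size of a difference over all genes was 0.19 under submergence and 0.40 in mock. Of the 2756 genes called under submergence 1801 were also called in mock, which is 65.3% of the submergence calls and 16.9% of the mock calls. Of those, 793 had the same direction, 408 higher and 385 lower, and 1008 had opposite directions. The larger part of these, 584 genes, was higher in tcpq under submergence and lower in mock, as PP2CA was, and 424 were the reverse, as ERS1 was. Another 955 genes were called under submergence alone.

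**Figure D5:**
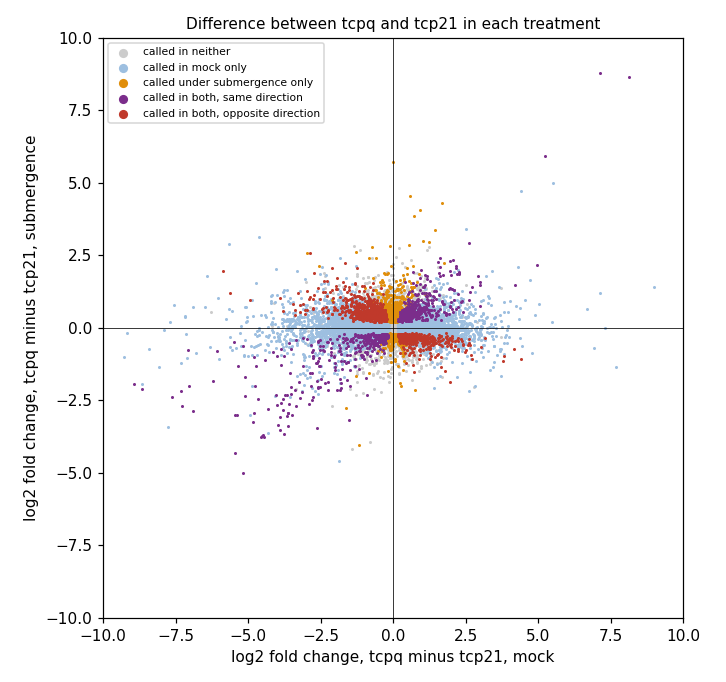
Log2 difference between tcpq and tcp21 under submergence (vertical) against the same difference in mock (horizontal), 1 point per gene tested. Purple points were called in both with the same direction (793), red points in both with opposite directions (1008) and orange points under submergence alone (955). The cloud is wider along the mock axis than along the submergence axis.

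The difference between the treatments was itself called for 8741 genes (42.9%), 4750 with a positive (23.3%) and 3991 with a negative value (19.6%). Among nuclear genes whose mean reached 5 CPM in the highest of the 4 mutant groups, the 6 largest positive values belonged to genes that were nearly silent in tcpq in mock. Genes of lower level can have larger fitted values. TGG2, the most abundant of the 6, a myrosinase that breaks down glucosinolates, had 47.7, 61.1 and 53.2 CPM in tcpq against 99.4, 95.6 and 77.1 CPM in tcp21 under submergence. In mock it had 0.874, 0.934 and 0.505 CPM in tcpq against 116, 86.2 and 108 CPM in tcp21. The difference was smaller under submergence (-0.75, adjusted p = 0.00164) than in mock (-7.06, adjusted p = 9.65e-15). The other genes of the 6 were UMAMIT14, an amino acid exporter, AT3G29630, a glycosyltransferase family gene, ESP, DFR and IRT1, all at 0.146 CPM or less in tcpq in mock.

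Under the same limit on level, the 6 largest negative values belonged to genes that were higher in tcpq in mock than in the other mutant groups. EARLI1, a lipid-transfer type protein, had 1.22, 2.53 and 1.72 CPM in tcpq against 2.48, 4.59 and 4.49 CPM in tcp21 under submergence, and 65.3, 53.7 and 61.4 CPM in tcpq against 2.19, 2.80 and 3.82 CPM in tcp21 in mock. EMB2729, an alpha amylase family gene, had 1.84, 3.16 and 2.40 CPM in tcpq against 3.72, 5.05 and 3.54 CPM in tcp21 under submergence, and 57.0, 49.96 and 50.5 CPM in tcpq against 2.54, 3.48 and 2.71 CPM in tcp21 in mock. Both stood out in every tcpq mock library, and both overlap genes on the opposite strand. XTH20, a wall-loosening enzyme, AT3G20395, a RING finger gene, AT2G41810 and AT5G50335 had the same pattern, with at most 2.27 CPM in any tcpq library under submergence and at least 4.16 CPM in each one in mock.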

How the data were processed

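RNA of whole seedlings was sequenced, and the deposited values are raw counts per gene, which the authors made before deposit. Per the submitters' processing notes, fastp 0.23.1, STAR 2.7.9a and the TAIR10 build were used. Which tool counted reads, whether strand was used and which annotation served is not given in the sources used here, so genes that overlap others, and close paralogs, are uncertain. Besides those named in the text, LNK1, LNK2, LHCB4.2, AT1G15125, AT1G66100, DWF1 and AT5G33370 overlap another gene. So do BAK1, SERK1, SERK2, TCP3, TCP19, ADH1 and ATG5, each on the opposite strand. Of 32833 genes, 32548 were found in RefSeq's TAIR10.1 gene table, which gave the symbols, and 285 were not. That table lists AT5G08330 as TCP11, with TCP21 as a synonym, and it is called TCP21 here.

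Counts of 18 libraries were fitted together in edgeR 4.0.16 (R 4.3.3) with its filterByExpr filter, TMM scaling and robust quasi-likelihood fits, 1 coefficient per group, after a check on simulated counts. Calls use Benjamini-Hochberg adjustment over all genes tested, with an adjusted p below 0.05. The SE is the absolute log2 difference over the square root of F, approximate for low counts. CPM use TMM-scaled library sizes, and levels are compared within a gene only. Nothing says that replicates are separate cultures, and p-values then reflect only how far these libraries differ, which may be technical. Replicate pairs all differed beyond counting error. Named genes are TCP21, BAK1, BKK1 and both TCP classes, the 12 genes that rose most and the 12 that fell most under submergence (called, nuclear, 5 CPM or more in the higher group, no overlap), the 6 largest interactions each way (called, nuclear, 5 CPM or more in the highest of the 4 mutant groups), and up to 4 called members of a list in each direction, with others where the text needs them. Genes outside this rule are named where a list's calls are accounted for in full. The comparison, members and lists were chosen with earlier results of these data known. Lists are given by counts and medians, with no set test. Alternatives were RLE and upper-quartile scaling, no filter, organelle genes left out, fits of 12 or 6 libraries, a replicate block, DESeq2 1.42.0 and leaving out each library. Figures were drawn with matplotlib.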

Additional observations from a re-analysis of the deposited data

Results flagged for a closer look

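The difference between tcpq and tcp21 was not the same under submergence and in mock for 8741 genes by the interaction test in edgeR, and the genes given with that test are listed here by the interaction's log2 value (submergence difference minus mock difference). Among class I TCP genes it was 1.82 for TCP21, 1.16 for TCP7, 0.86 for TCP15, 0.51 for TCP8 and 0.49 for TCP23. It was negative for TCP14 at -0.70 and for TCP19, a gene of under 5 CPM, at -2.01. Among class II genes it was 0.85 for TCP10 and 0.69 for TCP2, and it was -0.77 for TCP13 and -0.43 for TCP24.

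Among nuclear genes whose mean reached 5 CPM in the highest of the 4 mutant groups, the largest values were 7.81 for UMAMIT14, 7.58 for AT3G29630, 7.001 for ESP, 6.81 for DFR, 6.55 for IRT1 and 6.31 for TGG2. These 6 genes were near 0 in tcpq in mock, where tcp21 averaged 7.78, 6.75, 2.79, 4.89, 13.3 and 103 CPM in the same order. It was -5.94 for AT2G41810, -5.46 for EARLI1, -5.28 for AT5G50335, -4.93 for XTH20, -4.91 for EMB2729 and -4.81 for AT3G20395. Where a group had few or 0 counts, the fitted value depends on the fit's prior count and is no bound.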

How the results depend on the processing

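Under 8 alternatives that kept all libraries of the comparison, no gene called under submergence was called in the opposite direction, and between 2510 and 2684 of the 2756 calls were kept. Fitting only the 6 libraries called 3934 of 19475 genes, 2152 higher and 1782 lower. The 18 libraries gave 2756 of 20385, 1648 higher and 1108 lower, and the cause was not tested. By the replicate numbers of the titles, the correlations of same-numbered deviations were 0.032, 0.010 and 0.036 under submergence, under the limit of 0.1. Column names number some libraries otherwise, and there the third tcpq and the second tcp21 library share a number, with a correlation of 0.008. Whether libraries were handled in pairs is not known. With a replicate block by the title numbers 2561 genes were called, 1524 higher and 1037 lower. Leaving out 1 of the 6 libraries gave 1659 to 2002 calls, 931 to 1129 higher and 655 to 957 lower, the fewest calls without the first tcpq library. The share of calls that were higher in tcpq was 59.8%, and it was 54.2% with RLE size factors, 54.3% with upper-quartile scaling and 53.2% with DESeq2. Counts in mock and of the interaction stayed within 1.5 times in the alternatives run, and the 6-library fit gives no interaction. Some single calls were lost: ETR2 was not called with 6 libraries or the block, and BIR1 was not called with RLE size factors, DESeq2 or the block. LOX2 was not called with 6 libraries, XERO2 with RLE size factors or no filter, and NIMIN2 with the block. Depth limits genes under about 1 CPM, where 1 library holds few counts.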

Other observations

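Some transcripts were counted in 1 mutant only, in both treatments. These genes were singled out after their values were seen. AT5G44440, a berberine bridge enzyme family gene, averaged 2.56 CPM in tcpq under submergence and 0.791 CPM in tcpq in mock, and it had 0 counts in all 6 tcp21 libraries. Col averaged 0.0522 CPM in mock and was listed at 0 under submergence. AT2G06305, an RNA that codes for no annotated protein, had 0 counts in all 6 tcp21 libraries, while tcpq averaged 2.27 CPM and Col 2.48 CPM under submergence. Of all genes tested, 152 were called with a difference of at least 2-fold and the same direction in both treatments, 52 higher and 100 lower in tcpq. All 52 higher genes were nuclear, and of the 100 lower genes 47 were chloroplast-encoded, 2 mitochondrial and 51 nuclear.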
